A study of Mus musculus with 12 samples.

Results

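The genes described here are 10 genes of MHC class II presentation: H2-Aa, H2-Ab1, H2-Eb1, Cd74, Ciita, H2-DMa, H2-DMb1, H2-DMb2, H2-Oa and H2-Ob. They were taken by symbol from a table of raw read counts for 23420 genes, and all 10 were listed there. The counts came from 12 B16-F10 tumors. B16-F10 is a mouse melanoma cell line, implanted here under the skin of male C57BL/6J mice. Nonobese mice were kept on a control diet, and obese mice received a Western diet from an age of 4 to 5 weeks for 15 weeks, until a weight increase of 50%. Once tumors could be felt, both kinds of mice received anti–PD-1 (clone 29F.1A12) or isotype control antibody (clone 2A3) at 10 mg/kg, 3 times per week. Each of the 4 groups held 3 tumors, numbered 1 to 3 in the labels. The comparisons ask how PD-1 blockade and obesity relate to class II gene expression in the tumor. All groups share the tumor line, and the RNA is that of whole tumor tissue rather than of sorted cells.

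MHC class II molecules display peptides from taken-up material to CD4+ T cells. They are found mainly on dendritic cells, macrophages and B cells, and IFN-γ can also induce them on many other cells, melanoma cells among them. An α and a β chain assemble with the invariant chain, which is encoded by Cd74 and blocks the groove until proteases remove it. H2-DM then exchanges the remaining fragment for antigenic peptide, and H2-O restrains H2-DM. Ciita encodes the coactivator that switches these genes on. It does not bind DNA itself but is recruited by factors sitting on the X and Y boxes of class II promoters.

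Several of these promoters hold the X and Y cores in order, and the stretches that carry them are shown because they are the common control element of the group. In the RefSeq promoter windows of GRCm38.p6 (300 bases each, from 250 before to 50 after the start), 8 windows belonged to 7 of the 10 genes. The letters searched, on both strands, were ATTGG for the Y core and AGNAAC for the X core, and AGNAAC followed by 20 to 36 bases and ATTGG on the same strand for the pair. Of all 32851 windows of this length, 37.4% held ATTGG, 48.1% held AGNAAC and 0.907% held the pair. The pair was found in H2-Eb1, H2-DMb1, H2-Oa and H2-Ob, each time on the strand of the gene. H2-Aa has GGCAAC in place of AGNAAC, so it matched only when the X core was shortened to GNAAC, a search chosen after its window was seen. That wider pair occurs in 2.85% of all windows. The H2-DMb2 window and both H2-DMa windows held no pair in either form. Both H2-DMa windows and the H2-DMb2 window lie inside the span of their gene rather than at its first base, so the sequence before that base was not searched. Stretches are written 5′ to 3′ on the strand of the gene with the X and Y cores in capitals.
H2-Aa (chr17:34287864-34287908, minus strand): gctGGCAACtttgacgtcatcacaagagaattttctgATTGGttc
H2-Eb1 (chr17:34305772-34305815, plus strand): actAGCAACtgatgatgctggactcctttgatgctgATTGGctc
H2-DMb1 (chr17:34153093-34153137, plus strand): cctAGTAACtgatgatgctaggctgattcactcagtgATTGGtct
H2-Ob (chr17:34238814-34238855, plus strand): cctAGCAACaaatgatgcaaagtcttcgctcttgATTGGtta
H2-Oa (chr17:34092299-34092343, plus strand): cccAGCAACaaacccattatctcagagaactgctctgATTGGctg
All 5 stretches lie upstream of the start, with the Y core ending 39 to 57 bases before it. The stretch of H2-DMb2, the neighbor of H2-DMb1, lies inside the span of its gene and is given for comparison, with capitals at the positions that differ from H2-DMb1.
H2-DMb2 (chr17:34145122-34145166, plus strand): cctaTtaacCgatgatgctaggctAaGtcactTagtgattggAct
Of its 45 bases, 39 are those of H2-DMb1 and 6 differ. Counted from 1 at the 5′ end, G5T lies in the X core and T43A is the first base after the Y core, whereas ATTGG itself is shared. A match of letters is a description and not evidence of binding.

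The class II chain genes lie close together on chromosome 17 (GRCm38.p6). H2-Ab1 spans chr17:34263227-34269418, H2-Aa chr17:34282744-34287823 and H2-Eb1 chr17:34305867-34316674. The peptide loading genes lie on the same chromosome, H2-DMa at chr17:34119693-34139101, H2-DMb2 at chr17:34143229-34151553 and H2-DMb1 at chr17:34153191-34160229. H2-Oa is at chr17:34092379-34095234 and H2-Ob at chr17:34238905-34245908. Cd74 is on chromosome 18 (60803849 to 60812652) and Ciita on chromosome 16 (10480014 to 10531064). All 10 are protein-coding. Of the distinct 100-base windows of H2-DMb1 transcripts in the GENCODE annotation, 11.3% also occur in H2-DMb2, so a part of their reads cannot be assigned to either gene. The other 8 genes share no such window with another gene. On the opposite strand, H2-DMa overlaps Brd2 and 2 unnamed gene models, Ciita overlaps Dexi, H2-Eb1 overlaps Gm20513 and H2-Oa overlaps BC051537. On the same strand, H2-DMa overlaps a further gene model and Cd74 a microRNA gene, Mir5107. The library kit kept strand, but whether reads were counted by strand is not given in the sources used here.

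Totals were between 14022929 and 33871843 counts per tumor. Among leukocyte (Ptprc, Coro1a, Laptm5, Cd53, Cd52), melanocyte and skeletal muscle markers, the levels are given as summed CPM, read counts relative to library size after TMM scaling. Melanocyte markers, which check the tumor label, were high in every tumor and had a narrow range of 23650 to 29470. Leukocyte markers ranged from 29.2 to 137, and skeletal muscle markers ranged from 7.22 to 487. In each group except obese isotype, tumor 1 had the lowest muscle and the lowest leukocyte marker level. In the obese isotype group, tumor 1 was lowest for muscle and tumor 2 for leukocyte markers. A fit with the muscle marker level as a covariate is described with each result it touches. The part of muscle tissue itself in the class II results was not tested.

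Cd74, the invariant chain, was the most abundant class II transcript in each of the 12 tumors. Per kilobase of exon, its mean level over 12 tumors was 55.9 CPM per kb (SD 45.1). H2-Eb1 followed with 13.9, H2-Ab1 with 12.2, H2-Aa with 10.9 and H2-DMb1 with 8.18 CPM per kb. H2-DMa had 1.53, Ciita 0.243, H2-DMb2 0.154, H2-Oa 0.128 and H2-Ob 0.0567 CPM per kb. Because the tumors varied widely, only the step from H2-DMb1 to H2-DMa was larger than the larger SD of the neighbors compared. Within tumors the order was steadier than the means. Cd74 was above H2-Eb1, H2-DMb1 above H2-DMa and H2-DMa above Ciita in 12 of 12 tumors. H2-Eb1 was above H2-Ab1 in 10 tumors and H2-Ab1 above H2-Aa in 11, whereas H2-Aa and H2-DMb1 changed places, with H2-Aa higher in 7 of 12. The order of the chain genes depends on the lengths used, 3798 bases for H2-Aa, 2568 for H2-Ab1 and 1944 for H2-Eb1. Each is the union of all annotated exons and need not be the length of the transcript expressed. In read counts the order was reversed, with H2-Aa 1.13 to 1.75 times and H2-Eb1 0.692 to 0.998 times H2-Ab1.

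**Figure D1:**
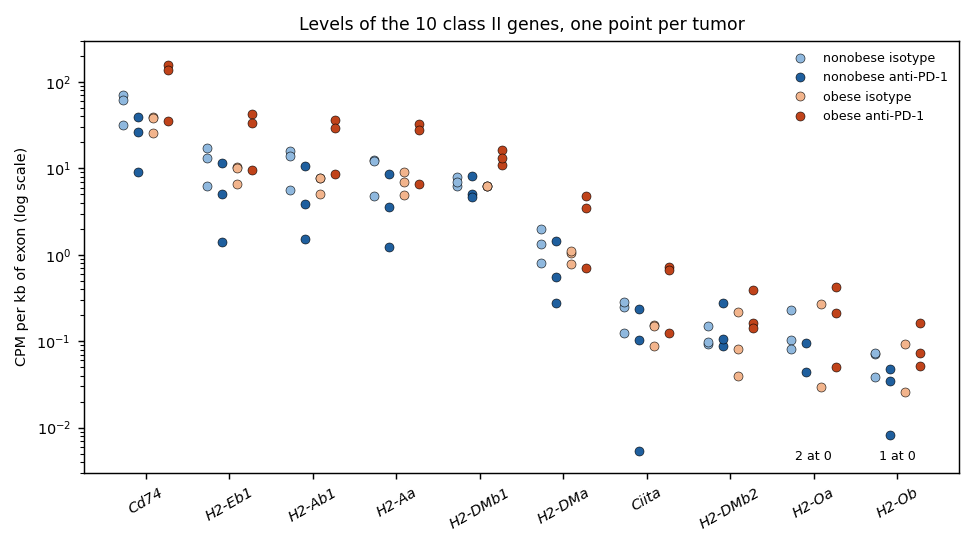
Level of each of the 10 class II genes in CPM per kilobase of exon, on a log scale, with a point for each tumor colored by group; the 3 zero values are counted at the bottom. Cd74 lies highest, the chain genes and H2-DMb1 form a middle layer, and Ciita, H2-DMb2, H2-Oa and H2-Ob lie lowest.

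The 3 least abundant genes, H2-DMb2, H2-Oa and H2-Ob, did not pass the filter on low counts with all 12 tumors and were not tested in that fit. H2-DMb2 had between 1 and 15 counts per tumor, and 4 of 12 tumors were at or under the floor of 3 counts. H2-Oa, which encodes the α chain of H2-O, had 0 to 13 counts, with 7 tumors at or under the floor. H2-Ob, the β chain, had 0 to 19 counts, with 3 tumors at or under it. For each of the 3 genes the highest value was that of obese anti–PD-1 tumor 3, and the values of that group overlapped those of the others. With every gene of at least 1 count kept, all 3 still had P above 0.05 in all 5 comparisons. At this depth no difference was detectable with all 12 tumors. Without obese isotype tumor 3, 8 class II genes were higher past the thresholds in obese than in nonobese anti–PD-1 tumors. That count includes a gene of these 3. Over all genes 499 were higher then, against 483 with all tumors. H2-DMb1 had 151 to 555 counts in the same tumors where its neighbor H2-DMb2 had 15 or fewer.

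H2-Aa, H2-Ab1, H2-Eb1, Cd74, Ciita, H2-DMa and H2-DMb1 were tested. They are 7 of the 13095 genes that passed the filter. The test was edgeR's quasi-likelihood F-test, and a gene is called past the thresholds when it changed more than 2-fold and its unadjusted P was below 0.05, the rule of the study's methods. That P enters only through the call, and the value printed for a gene is the Benjamini-Hochberg FDR over all genes tested. In bulk tissue, fewer cells of a type and less RNA per cell cannot be told apart. The comparisons share groups of tumors, so their values are not independent of each other.

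In obese mice, all 7 tested class II genes rose past the thresholds with anti–PD-1. Log2 fold changes were between 1.10 for H2-DMb1 and 1.94 for Ciita, with a median of 1.66. Over all genes tested the median was -0.01. The background at these thresholds was 2.24% of genes tested. None of the 7 passed an FDR below 0.05, nor did any gene of the table, where the share was 0%. All 7 had an unadjusted P below 0.05, as did 991 of all genes tested. DESeq2 called 105 genes at an FDR below 0.05 and 1 of the 7, H2-DMb1. The rise was carried by 2 of the 3 treated tumors for most of the genes. In the same comparison 4 of 5 leukocyte markers, 6 of 7 T cell genes and 6 of 6 adipocyte markers tested also rose past the thresholds. Macrophage markers had 1 of 9 and melanocyte markers 0 of 6.

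H2-Aa, the α chain of I-A, had 26.6, 18.5 and 34.4 CPM in obese isotype tumors 1 to 3 and 25.2, 123 and 106 CPM with anti–PD-1. Treated tumor 1 lay among the isotype tumors, and the other two were far above them. The log2 fold change was 1.68 (SE 0.62, FDR 0.517 from edgeR). Its partner H2-Ab1, the β chain of I-A, had 20.1, 13.2 and 19.7 CPM under isotype, against 22.3, 94.0 and 75.7 under anti–PD-1. Here the groups did not overlap, although treated tumor 1 exceeded the highest isotype tumor only slightly. H2-Ab1 changed by 1.86 on the log2 scale (SE 0.61, FDR 0.436 from edgeR). H2-Eb1, the β chain of I-E, had 20.02, 12.9 and 19.6 CPM under isotype, against 18.6, 81.7 and 65.4 under anti–PD-1. Again only tumors 2 and 3 stood above the isotype group, and the log2 fold change was 1.66 (SE 0.61, FDR 0.517 from edgeR). C57BL/6 mice are known to lack a working I-E α chain, and H2-Ea-ps, the locus of that chain, had 0 counts in every tumor.

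Cd74 had 66.9, 43.6 and 65.1 CPM in obese isotype tumors and 58.9, 261 and 229 CPM in obese anti–PD-1 tumors. Treated tumor 1 lay within the isotype range, and tumors 2 and 3 were above every other tumor of the study. The log2 fold change was 1.64 (SE 0.53, FDR 0.423 from edgeR). Ciita, the class II coactivator, had 35, 12 and 30 counts under isotype, against 17, 141 and 139 counts under anti–PD-1. In CPM these were 1.47, 0.839 and 1.43 against 1.20, 6.93 and 6.34, which repeats the pattern of the chains. The log2 fold change of Ciita was 1.94 with the largest SE of the 7 genes (0.77, FDR 0.571 from edgeR).

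H2-DMa, the α chain of the peptide exchange factor, had 3.62, 2.73 and 3.82 CPM under isotype, against 2.40, 16.5 and 12.04 under anti–PD-1. Treated tumor 1 was below all isotype tumors, and the log2 fold change was 1.61 (SE 0.62, FDR 0.548 from edgeR). H2-DMb1, the β chain of the same factor, behaved differently. It had 10.6, 10.6 and 10.5 CPM in obese isotype tumors and 18.3, 27.3 and 22.2 CPM in obese anti–PD-1 tumors. All 3 treated tumors, tumor 1 included, lay above all isotype tumors of both diets. The log2 fold change of 1.10 was the smallest of the 7 but had an SE of 0.21, with an FDR of 0.192 from edgeR. H2-Ab1 and H2-DMb1, 2 of the 7 genes, were free of overlap between groups, against 5.45% of genes tested that were higher without overlap.

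**Figure D2:**
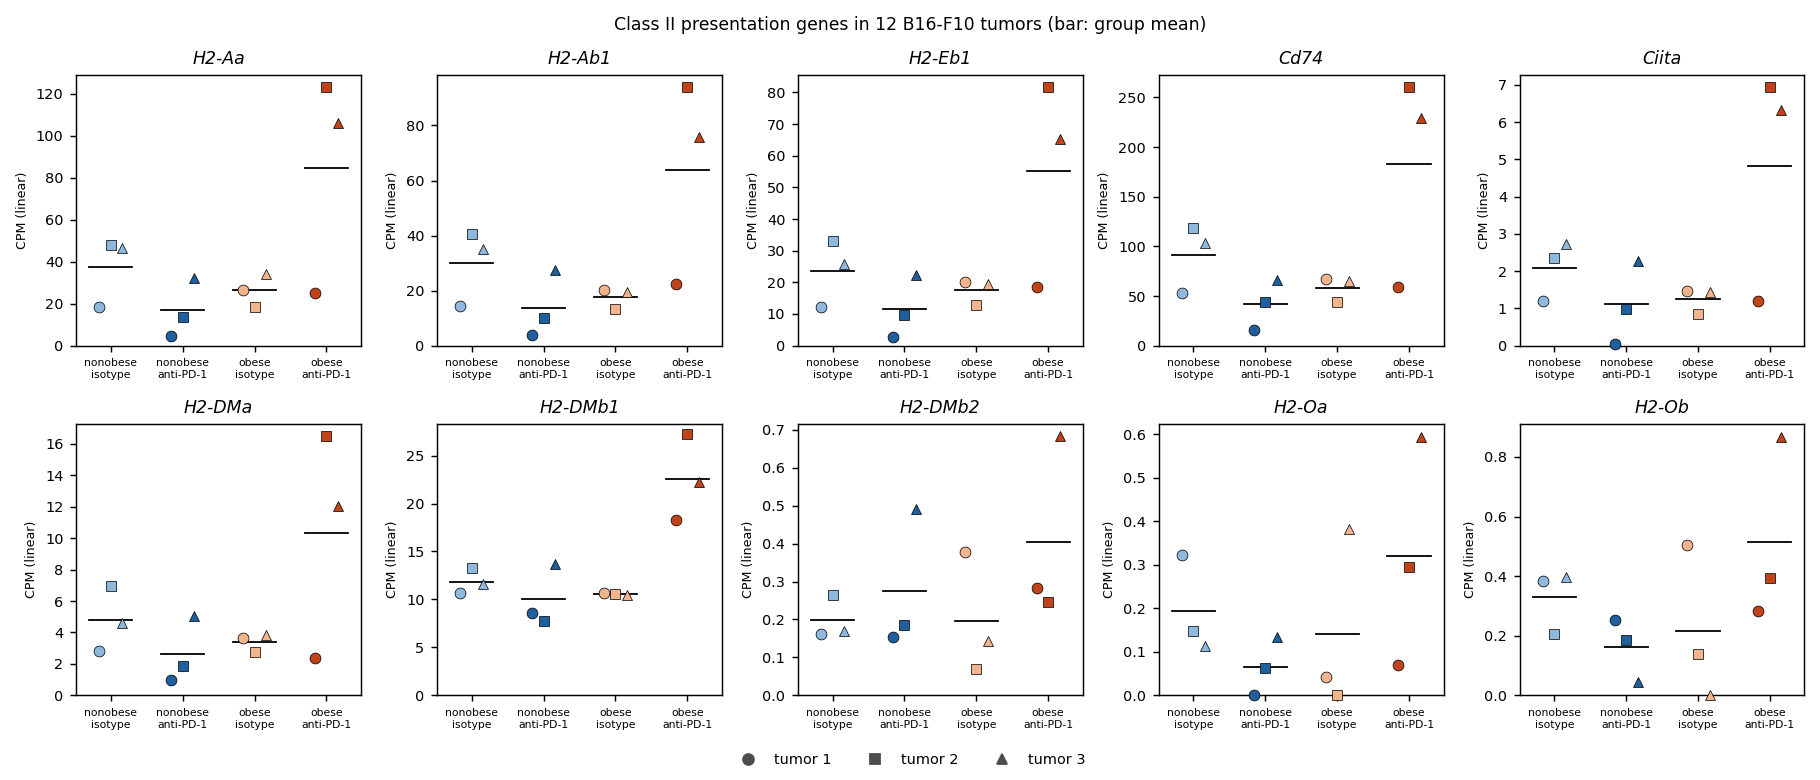
CPM of the 10 class II genes in each of 12 tumors on linear axes from 0, with the marker shape giving the tumor number and the bar the mean of 3 tumors. In 6 of the 7 tested genes obese anti–PD-1 tumors 2 and 3 stand apart from tumor 1, while for H2-DMb1 all 3 (18.3 to 27.3 CPM) lie above the rest.

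The calls in obese mice changed with single tumors and with the muscle covariate. Without obese anti–PD-1 tumor 2, the genes past the thresholds numbered 2 of 7, H2-Ab1 and Cd74, and H2-DMb1 fell short in fold only (log2 fold change 0.95, FDR 0.600 from edgeR). Without obese isotype tumor 2 they numbered 3 of 7, H2-Ab1, Cd74 and H2-DMb1. Without obese anti–PD-1 tumor 1, all 7 stayed past the thresholds, log2 fold changes reached 2.41 for Ciita and H2-DMb1 passed an FDR of 0.05 (edgeR). With the mean log2 CPM of 6 skeletal muscle markers as a covariate, an alternative chosen after seeing the data, 0 of 7 passed and the median log2 fold change was 0.61. In that fit H2-Aa had a log2 fold change of 0.47 (FDR 0.760), Cd74 of 0.63 (FDR 0.679) and H2-DMb1 of 0.92 (FDR 0.405, edgeR). In that group treated tumors had summed muscle markers of 29.1, 217 and 487 CPM, against 9.55, 15.5 and 109 with isotype. When tumor 1 of every group was left out, also chosen after seeing the data, all 7 genes passed and 5 had an FDR below 0.05 in edgeR. The counts over all genes moved with these settings too. Without tumor 1 of every group 719 of 13250 genes tested were higher past the thresholds, against 293 with all tumors, and 131 had an FDR below 0.05. Without obese anti–PD-1 tumor 1 it was 555 and 76, and with the covariate 127 and 1. Without obese anti–PD-1 tumor 2 the higher genes numbered 194, and without obese isotype tumor 2 they numbered 203.

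**Figure D3:**
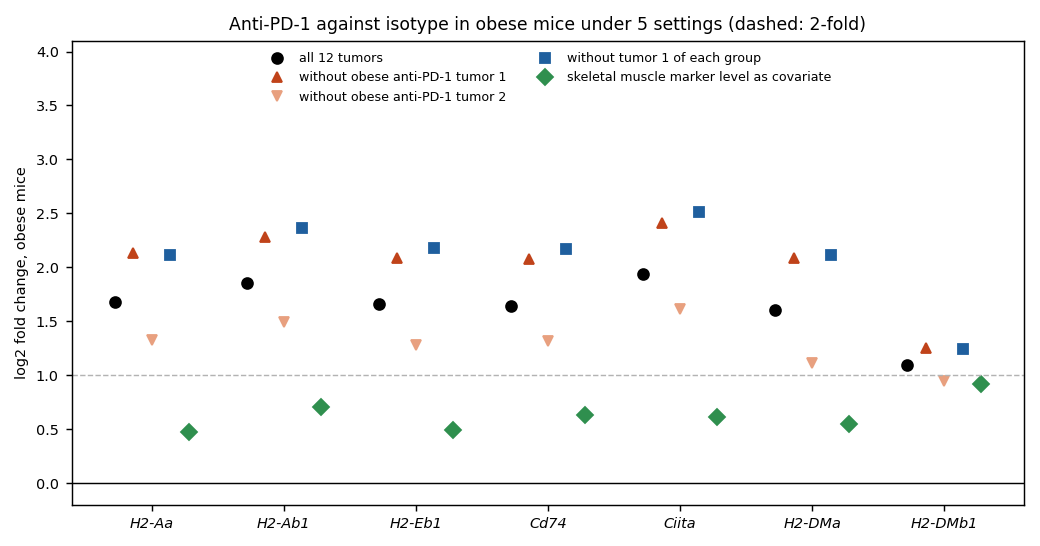
Log2 fold change of the 7 tested genes between anti–PD-1 and isotype in obese mice, under 5 settings marked by shape and color; the dashed line marks a 2-fold change. Values are highest without tumor 1 and lowest with the muscle covariate, where H2-DMb1 keeps 0.92 and H2-Aa 0.47.

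In nonobese mice, all 7 genes had negative log2 fold changes with anti–PD-1, but 1 of 7, Cd74, fell past the thresholds, against a background of 2.31% of genes tested. The median was -1.02, and over all genes tested it was 0.02. No class II gene had an FDR below 0.05, where the share of all genes was 0% by edgeR, with 685 genes at an unadjusted P below 0.05 and 9 called by DESeq2 at that FDR. Cd74 had 53.2, 119 and 103 CPM under isotype, against 15.4, 44.5 and 66.0 under anti–PD-1. Its groups overlapped, and its log2 fold change was -1.12 (SE 0.52, FDR 0.929 from edgeR). The call was lost under DESeq2 and under RLE scaling, where the unadjusted P was above 0.05. It was also lost when any of 9 of the 12 tumors was left out, and without nonobese anti–PD-1 tumor 1 the log2 fold change was -0.73 (FDR 0.641 from edgeR).

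Nonobese anti–PD-1 tumor 1 was the lowest of all 12 tumors for 6 of the 7 tested genes. H2-Aa had 18.4, 47.95 and 46.7 CPM under isotype, against 4.73, 13.7 and 32.3 under anti–PD-1. H2-Ab1 had 14.3, 40.5 and 35.3 under isotype, against 3.96, 9.93 and 27.5 under anti–PD-1. In both genes tumor 1 was lowest within its group under either antibody, and the ranges overlapped. H2-Eb1 had 12.2, 33.1 and 25.7 CPM under isotype, against 2.74, 9.83 and 22.3 under anti–PD-1, with the same order of tumors. Log2 fold changes of these chain genes were -1.15, -1.12 and -1.02, none with an unadjusted P below 0.05 in edgeR (FDR 0.929 for each). Ciita had 37, 80 and 48 counts under isotype, against 1, 32 and 51 counts under anti–PD-1, so the single count of tumor 1 lies under the floor of 3. Its log2 fold change was -0.89 (FDR 0.929 from edgeR).

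H2-DMa had 2.79, 6.93 and 4.60 CPM under isotype, against 0.966, 1.89 and 5.04 under anti–PD-1 in nonobese mice, for a log2 fold change of -0.86 (FDR 0.929 in edgeR). H2-DMb1 stayed within 7.79 to 13.7 CPM over these 6 tumors, with a log2 fold change of -0.24 (SE 0.21, FDR 0.929 from edgeR). Its values in tumors 1 to 3 were 10.6, 13.3 and 11.6 under isotype, against 8.59, 7.79 and 13.7 under anti–PD-1. The groups overlapped for all 7 genes, and 5.37% of genes tested were lower without overlap. Without nonobese anti–PD-1 tumor 3, 6 of 7 genes were past the thresholds, all but H2-DMb1, and without nonobese isotype tumor 1 or obese anti–PD-1 tumor 1 the counts were 3 and 2. With the muscle covariate 4 of 7 were, H2-Aa, H2-Ab1, H2-Eb1 and Cd74. Over all genes, 476 were lower without nonobese anti–PD-1 tumor 3, 491 without nonobese isotype tumor 1, 341 without obese anti–PD-1 tumor 1 and 337 with the covariate, against 302 with all tumors.

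The difference between the obese and the nonobese response was positive for all 7 genes. All 7 passed the thresholds, against a background of 4.93% of genes tested. In the same comparison 5 of 5 leukocyte, 9 of 9 macrophage and 6 of 6 adipocyte markers were higher past the thresholds. So were 7 of 7 T cell genes tested, whereas muscle markers had 1 of 6 and melanocyte markers 0 of 6. The log2 difference was 2.83 for H2-Aa, 2.98 for H2-Ab1 and 2.68 for H2-Eb1. For Cd74 it was 2.77 (SE 0.74, FDR 0.148), for Ciita 2.83 and for H2-DMa 2.47. H2-DMb1 had the smallest difference, 1.34, and the lowest FDR of the 7 (SE 0.30, FDR 0.118 from edgeR). FDR values of the remaining genes were between 0.170 and 0.296. No gene had an FDR below 0.05 in edgeR, so that share was 0% of the table. There were 1687 genes at an unadjusted P below 0.05, and DESeq2 called 283, of which 1 was a class II gene, H2-DMb1. Without obese anti–PD-1 tumor 1, 2 class II genes had an FDR below 0.05, Cd74 and H2-DMb1, and without nonobese anti–PD-1 tumor 3 H2-DMb1 had. Of all genes, 197 and 37 had one then, against 0 with all tumors. With the muscle covariate 5 of 7 passed, and the median log2 difference was 1.66 instead of 2.77. Over all genes that fit had 412 higher and 235 lower, against 645 and 109 without the covariate.

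With isotype control, obese and nonobese tumors did not differ in class II genes past the thresholds. All 7 log2 fold changes were negative, from -0.76 for H2-Ab1 to -0.16 for H2-DMb1, with FDR values of 0.586 or above in edgeR. The median was -0.50 and 0 of 7 passed, against 1.12% of genes tested that were lower. The groups overlapped for all 7 genes, where 9.02% of genes tested were lower without overlap. The share at an FDR below 0.05 was 0% in edgeR, with 0 of the 7 and 1739 of all genes at an unadjusted P below 0.05, and DESeq2 called 200 genes and 0 of the 7. Cd74 spanned 53.2 to 119 CPM in nonobese and 43.6 to 66.9 CPM in obese isotype tumors. H2-Ab1 was the gene farthest from 0, with 30.03 ± 13.8 CPM in nonobese and 17.6 ± 3.88 CPM in obese tumors (SD, n = 3 each). With the muscle covariate the median log2 fold change turned to 0.24, and without tumor 1 of each group 3 of 7 genes, H2-Ab1, Cd74 and Ciita, were lower past the thresholds. In that setting 576 of 13250 genes tested were lower, against 147 with all tumors.

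With anti–PD-1, class II genes were higher in obese than in nonobese tumors, and all 7 passed the thresholds against a background of 3.69% of genes tested. Leukocyte, macrophage and adipocyte markers were higher in the same comparison, with 5 of 5, 7 of 9 and 6 of 6 past the thresholds. Fold differences were 5.03 for H2-Aa, 4.65 for H2-Ab1 and 4.75 for H2-Eb1. Cd74 was 4.36-fold higher (log2 2.12, SE 0.53, FDR 0.122 from edgeR). Ciita was 4.36-fold and H2-DMa 3.94-fold higher, with FDR values of 0.338 and 0.237. H2-DMb1 was 2.26-fold higher, at 22.6 ± 4.53 CPM in obese and 10.0 ± 3.20 CPM in nonobese tumors (SD, n = 3 each). It was the only class II gene with an FDR below 0.05 (FDR 0.0363 from edgeR), a level reached by 0.382% of genes tested. It was also the only 1 of the 7 whose groups did not overlap, where 6.54% of genes tested were higher without overlap. The FDR of H2-DMb1 was above 0.05 when any of 9 tumors was left out, whereas without obese anti–PD-1 tumor 1 an FDR below 0.05 was reached by 6 class II genes and without nonobese anti–PD-1 tumor 3 by 2. With the muscle covariate all 7 remained past the thresholds and 5 had an FDR below 0.05. Over all genes, an FDR below 0.05 was reached by 214 without obese anti–PD-1 tumor 1, by 93 without nonobese anti–PD-1 tumor 3 and by 112 with the covariate, against 50 with all tumors.

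**Figure D4:**
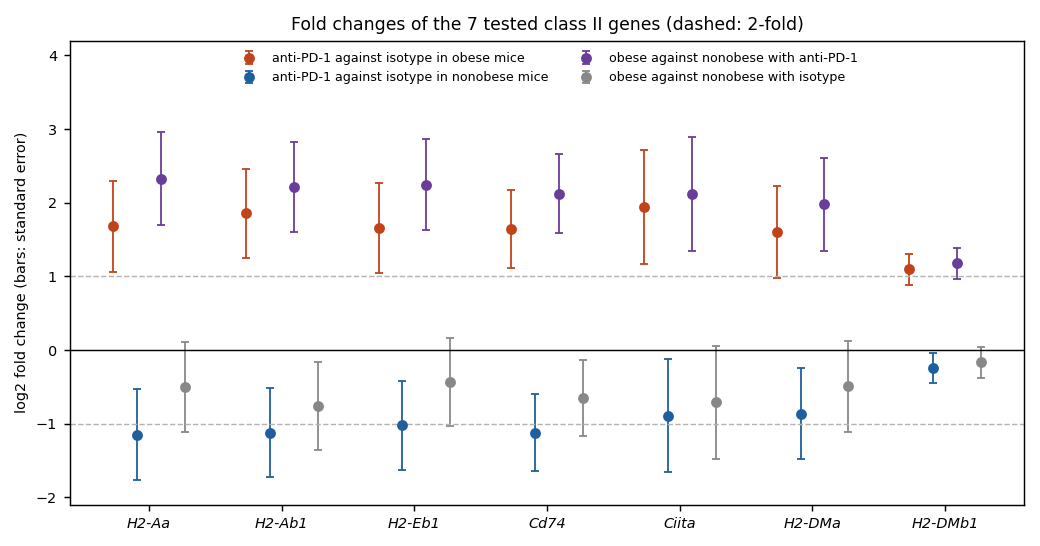
Log2 fold change of the 7 tested class II genes in 4 comparisons, with bars of 1 standard error and dashed lines at a 2-fold change. Both comparisons that involve obese anti–PD-1 tumors lie above 0 for all 7 genes, and H2-DMb1 has the shortest bars.

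The class II chains kept nearly fixed proportions in a tumor while their levels changed. From the lowest to the highest tumor, H2-Aa differed 26.1-fold, H2-Ab1 23.7-fold, H2-Eb1 29.8-fold, Cd74 16.9-fold and H2-DMa 17.1-fold in CPM. Nevertheless, the ratio of H2-Aa to H2-Ab1 counts stayed between 1.13 and 1.75 over the 12 tumors. The ratio of H2-Eb1 to H2-Ab1 counts was between 0.692 and 0.998, and that of Cd74 to H2-Aa between 1.89 and 3.26. These ratios are of read counts and are not corrected for length. H2-DMb1 differed 3.50-fold between its lowest and highest tumor, far less than the others. The ratio of H2-DMb1 to H2-DMa counts therefore ran from 1.66 in obese anti–PD-1 tumor 2 to 8.90 in nonobese anti–PD-1 tumor 1, a 5.37-fold range, although both chains form a single heterodimer. Obese anti–PD-1 tumor 1 had the next highest ratio, 7.62. In log2 CPM over 12 tumors, H2-DMb1 had Pearson correlations of 0.743 to 0.852 with the other 6 genes, and those 6 had 0.939 to 0.993 among themselves. These correlations describe tumors that differ in group and cell content.

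Class II levels moved with leukocyte markers. The mean log2 CPM of the 7 genes had r = 0.925 with that of the leukocyte markers over 12 tumors, and 0.866 for deviations from group means. For 9 macrophage markers r was 0.871 over all tumors and 0.820 within groups, and for 6 tested dendritic cell markers 0.949 and 0.922. The dendritic cell list includes Itgax and Irf8, which were among the single genes most like the class II mean (r = 0.974 and 0.966). The r of its remaining tested markers, Zbtb46, Batf3, Ccr7 and Cd209a, without Itgax and Irf8 was not computed. For T cell genes r was 0.903 over all tumors and 0.904 within groups, and for endothelial markers 0.793 and 0.846. Melanocyte markers had -0.419 and -0.594. For skeletal muscle markers r was 0.697 over all tumors and 0.840 within groups, and for adipocyte markers 0.734 and 0.346. Muscle markers followed class II levels more closely within groups than over all tumors, and adipocyte markers less closely. Cd74 counts per summed leukocyte marker count, a ratio chosen after seeing the data, were 0.966, 1.02 and 1.02 in nonobese isotype and 0.418, 1.12 and 1.53 in nonobese anti–PD-1 tumors. In obese mice this ratio was 1.11, 1.49 and 1.13 under isotype, against 1.21, 1.91 and 1.69 under anti–PD-1. Relative to leukocyte markers, Cd74 differed between obese anti–PD-1 and isotype tumors by 0.35 on the log2 scale (two-sided exact permutation P = 0.2), where its CPM differed by 1.64. Relative to macrophage markers the difference was 0.64 (two-sided exact permutation P = 0.3). With 3 tumors against 3, the smallest P that this test can give is 0.1. For H2-DMb1 the ratio to leukocyte markers was 0.374, 0.199 and 0.165 with anti–PD-1 and 0.176, 0.361 and 0.182 with isotype in obese mice, a log2 difference of 0.03 (two-sided exact permutation P = 0.9). Relative to macrophage markers it was 0.31 (two-sided exact permutation P = 0.5). In nonobese mice, H2-DMb1 relative to leukocyte markers was 0.193, 0.114 and 0.115 in isotype tumors and 0.233, 0.197 and 0.317 in anti–PD-1 tumors. These groups did not overlap, and the log2 difference was 0.84 (two-sided exact permutation P = 0.1). There were 24 such ratio tests, and the lowest Benjamini-Hochberg adjusted value over them was 0.554. Whether single cells held more class II RNA was not tested.

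**Figure D5:**
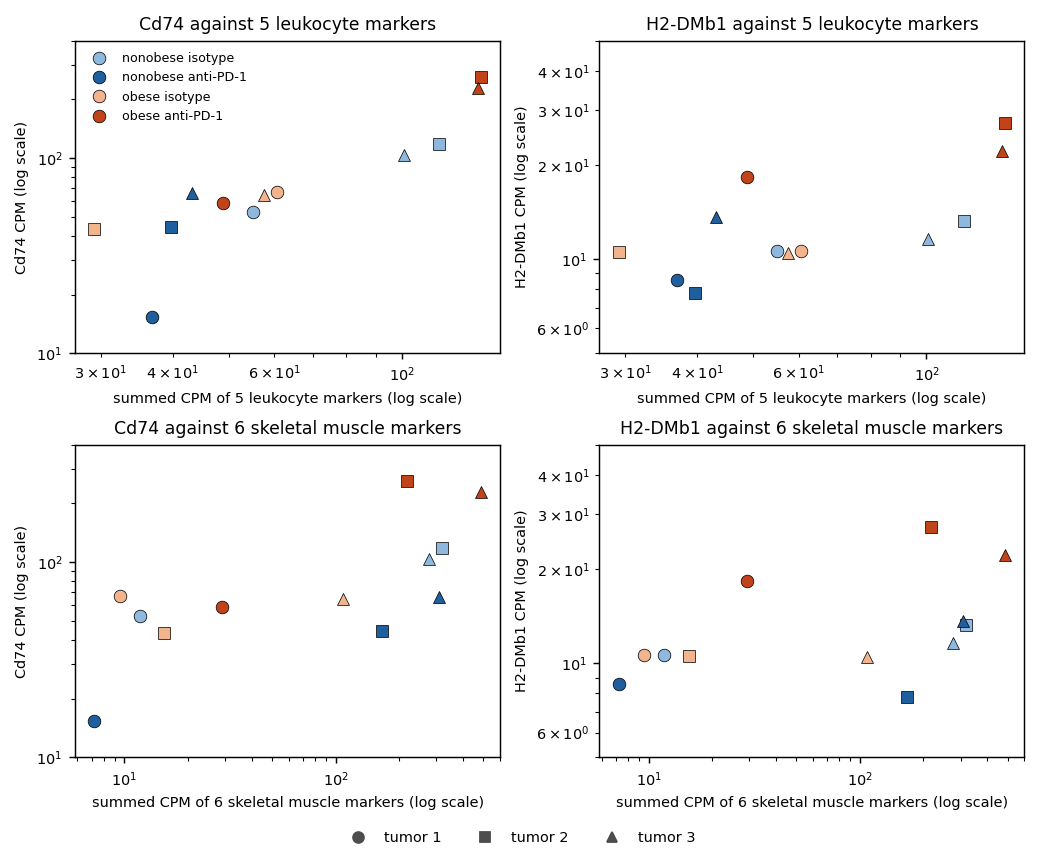
CPM of Cd74 (left) and H2-DMb1 (right) against the summed CPM of 5 leukocyte markers (top) and 6 skeletal muscle markers (bottom) in 12 tumors, all axes logarithmic. Cd74 follows the leukocyte markers, while H2-DMb1 stays between 7.79 and 13.7 CPM in the 9 tumors outside the obese anti–PD-1 group. Over 12 tumors, log2 CPM of Cd74 had r = 0.95 with the mean of the leukocyte markers, and that of H2-DMb1 had 0.798.

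The markers of cells that carry class II differed in how well they were seen. Of the leukocyte markers, 4 of 5 rose in obese mice with anti–PD-1 and the pan-leukocyte gene Ptprc had a log2 fold change of 1.37 (FDR 0.539, edgeR). In nonobese mice 1 of 5, Laptm5, fell. Among 9 macrophage markers tested, 1 rose in obese mice, Csf1r, and the median log2 fold change was 0.87, with 9 of 9 positive. In nonobese mice 5 of the 9 fell, with a median of -1.01. Summed macrophage markers were 231 to 508 CPM in nonobese isotype, 154 to 225 in nonobese anti–PD-1, 188 to 319 in obese isotype and 266 to 514 CPM in obese anti–PD-1 tumors. Of 10 dendritic cell markers 6 were tested, and 2 rose in obese mice, Irf8 (log2 fold change 1.60) and Itgax (1.32). The other 4 tested, Zbtb46, Batf3, Ccr7 and Cd209a, did not pass, and Zbtb46, a transcription factor of conventional dendritic cells, had log2 fold changes of 0.16 in obese and 0.19 in nonobese mice (FDR 0.915 and 0.948 from edgeR). Batf3, a factor of cross-presenting dendritic cells, had 0.04 in obese mice (FDR 0.991). Xcr1, Clec9a, Flt3 and Siglech stayed at or below 0.688 CPM in every tumor and Xcr1 was at 0 in 3 tumors. Summed dendritic cell markers were 15.5 to 24.5 CPM in nonobese isotype, 10.98 to 18.6 in nonobese anti–PD-1, 13.2 to 16.5 in obese isotype and 16.4 to 46.3 CPM in obese anti–PD-1 tumors. B cell markers summed to 1.29 to 6.52 CPM. The B cell genes Ms4a1, Pax5 and Blk failed the filter, and of the 2 tested, Cd79b rose in obese mice by 1.98 on the log2 scale (FDR 0.530 from edgeR), whereas its partner in the B cell receptor, Cd79a, had -0.08 (FDR 0.975). Endothelial markers, 6 in number, had 0 calls in obese mice and 1 in nonobese mice, Tek, which fell. Melanocyte markers had 0 of 6 past the thresholds in either diet. Of 6 adipocyte markers all rose with anti–PD-1 in obese mice and 3 fell in nonobese mice, and of 6 muscle markers 1, Mylpf, rose in obese mice. Between anti–PD-1 groups, obese tumors were higher past the thresholds also for 3 of 6 dendritic cell markers and 7 of 7 T cell genes tested. In that comparison 8 of the 9 macrophage markers were higher without overlap between groups, against 6.54% of genes tested. Of the adipocyte markers 3 had an FDR below 0.05 in edgeR, against 0.382% of genes tested. The muscle and melanocyte markers had 0 of 6 each. With isotype, 1 leukocyte, 3 macrophage and 3 adipocyte markers and 1 T cell gene were lower past the thresholds in obese tumors. The part of any of these cells in the class II results was not tested beyond the values given.

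The genes of the factors that recruit Ciita had no call. Rfx5, Rfxank and Rfxap form the RFX complex of the X box, and Nfya, Nfyb and Nfyc bind the Y box. Of these genes and Creb1, 0 of 7 passed the thresholds in any of the 5 comparisons. In obese mice their median log2 fold change was -0.18, with the lowest value at -0.41 for Nfya. Creb1, the most abundant after Nfya, had a log2 fold change of -0.32 (FDR 0.538 in edgeR). Nfya had 94.8, 85.9 and 80.9 CPM in obese isotype and 57.9, 67.9 and 71.5 CPM in obese anti–PD-1 tumors. In obese mice 4 of these 7, Rfxank, Rfxap, Creb1 and Nfya, were lower in every treated tumor than in any isotype tumor, where 7% of genes tested were lower without overlap.

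Genes of the IFN-γ pathway, which induces Ciita, changed in part. In obese mice 1 of 7 tested genes, the transcription factor Irf1, rose past the thresholds with a log2 fold change of 1.001 (FDR 0.561 in edgeR). Its values with isotype were 30.1, 26.9 and 30.8 CPM and with anti–PD-1 22.6, 93.2 and 59.4 CPM, again with treated tumor 1 low. In nonobese mice 0 of 7 passed. Irf1 was higher past the thresholds in obese than in nonobese anti–PD-1 tumors. Ifng itself, the gene of the cytokine, failed the filter, and its highest level was 0.590 CPM, in obese anti–PD-1 tumor 2.

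Of 9 antigen processing genes, a list of proteases, a protease inhibitor, a thiol reductase and ubiquitin ligases, 1 rose in obese mice and 2 fell in nonobese mice. Ctss, the cathepsin that removes the invariant chain, had 30.5, 28.5 and 38.4 CPM in obese isotype and 43.0, 87.7 and 87.4 CPM in obese anti–PD-1 tumors. In nonobese mice it had 32.0, 73.8 and 68.3 CPM under isotype, against 16.5, 23.5 and 26.3 under anti–PD-1. The treated tumors were above all isotype tumors in obese mice and below all of them in nonobese mice. Log2 fold changes of Ctss were 1.16 (FDR 0.281) and -1.39 (FDR 0.833), and between anti–PD-1 groups Ctss was higher in obese mice by 1.72 with an FDR of 0.0408 (edgeR). March1, a ubiquitin ligase that removes class II from the surface, fell in nonobese mice by 1.85 on the log2 scale (FDR 0.833) and had 1.17 in obese mice (FDR 0.681). The more abundant Ctsb, Ctsd and Ctsl did not pass in any comparison. H2-Eb2, a further class II locus gene, had at most 0.312 CPM.

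On the costimulatory and T cell side, 1 of 5 costimulatory genes rose in obese mice, Cd86, a ligand of CD28, by 1.83 on the log2 scale (FDR 0.447 from edgeR). In nonobese mice Cd40 fell by 1.61 (FDR 0.845). Of 7 tested T cell genes 6 rose in obese mice, led by Cd3d, Cd8a and Cd3g. Their log2 fold changes were 4.93, 3.09 and 3.75 (FDR 0.192 to 0.220). In obese isotype tumors Cd3d had at most 2 counts, under the floor of 3, and Cd3g at most 5. The size of these 2 fold changes is therefore uncertain. Cd4, the coreceptor that class II engages, did not pass, with 0.673, 0.839 and 0.525 CPM under isotype, against 0.423, 1.28 and 1.73 under anti–PD-1 in obese mice. It fell in nonobese mice (log2 fold change -1.14, FDR 0.925). Summed T cell side genes were 1.64 to 2.77 CPM in obese isotype and 4.44 to 15.8 CPM in obese anti–PD-1 tumors.

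Genes among those whose log2 CPM most resembled the mean of the 7 class II genes over 12 tumors were Cxcl9, Itgax, Gbp9, Nod1, Irf8, Gbp3, Plbd1, Iigp1 and Gbp6. Cxcl9, an IFN-γ-induced chemokine, had r = 0.990 (Spearman's rho 0.986), and Gbp6, an IFN-induced GTPase, had 0.964. For deviations from group means r was 0.983 for Cxcl9 and between 0.931 and 0.974 for the other 8 named. Without the 2 tumors farthest from the median, nonobese anti–PD-1 tumor 1 and obese anti–PD-1 tumor 2, r was 0.907 to 0.982. They were picked for following the class II mean in these tumors, so their fold changes are a description and not further evidence. Cxcl9 rose by 2.36 on the log2 scale in obese mice (FDR 0.330 from edgeR) and had -1.07 in nonobese mice (FDR 0.929).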

How the data were processed

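RNA of 12 tumors was sequenced as single-end reads of 100 bases from a stranded poly(A) kit. Per the submitters' processing notes, the tools were FastQC 0.11.5, STAR 2.7.0f, HTSeq 0.9.1 and edgeR 3.28.1 with build mm10. The authors deposited raw counts, whole numbers per gene without normalization, and every column was matched to a tumor by its library name in the labels. Reads had no molecular identifiers, so the floor of 3 counts covers counting error only. The smallest library, with 14022929 counts, limits what can be seen of scarce transcripts.

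Counts were filtered with filterByExpr, scaled by TMM and fitted in edgeR 4.0.16 (R 4.3.3, limma 3.58.1) with 4 group means for all 12 tumors (residual df 8). Tests were quasi-likelihood F-tests from the earlier form of glmQLFit, with Benjamini-Hochberg adjustment. Standard errors were derived from the F statistic. CPM per kb used the union of exons in GENCODE vM21. Likeness was measured on log2 CPM with a prior count of 2. Replicates of a group differed by more than sampling noise. Alternatives were DESeq2 1.42.0, RLE scaling, other filters, the current glmQLFit, models of 6 tumors, a replicate block, summed H2-DMb1 and H2-DMb2, leaving out tumors and a muscle covariate. Code was tested on simulated data. The P values of edgeR set a difference of group means against the spread between tumors of the same group. That spread is estimated over all groups in the fit and in part across genes, not from the 3 tumors of a single group.

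The 10 genes and all gene lists were chosen with earlier results of these data known. Named genes are the 10 class II genes, genes from the 10 most similar, up to 3 genes per pathway or marker list past the thresholds (otherwise the most abundant) and markers at 0. Nfya, Rfxank, Ifi30, Cd4, Ifng, March1, Cd53, Adipoq, Cidec, Retn, Zbtb46, Batf3, Ccr7, Cd209a and Cd79a are named beyond it, chosen after their values were seen. Some genes that the rule selects are not reported here. Other data of the study were not analysed here.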

Additional observations from a re-analysis of the deposited data

Results flagged for a closer look

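In none of the 7 tested class II genes did every treated tumor lie on one side in obese mice and on the other in nonobese mice. This pattern was seen in 8 of 81 tested genes of the pathway and marker lists (9.88%), against 187 of all 13095 genes tested (1.43%), and the lists hold markers that move together. No such difference passed an FDR below 0.05 in edgeR. The log2 difference between responses was 2.55 for Ctss (FDR 0.0855), the cathepsin of the invariant chain, and 0.641 for Ifi30 (FDR 0.172), the thiol reductase of antigen processing. With the opposite direction it was -0.537 for Nfya (FDR 0.169) and -0.242 for Rfxank (FDR 0.545), of the factors on the Y and X boxes. It was 1.52 for the leukocyte gene Cd53 (FDR 0.130). For the adipocyte genes Adipoq, Cidec and Retn it was 5.38 (FDR 0.0709), 5.38 (FDR 0.106) and 6.03 (FDR 0.121).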

How the results depend on the processing

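No class II gene past the thresholds in the fit of all 12 tumors changed direction in any setting run. With isotype, where none passed, H2-Ab1, Cd74 and Ciita were lower past the thresholds without tumor 1 of each group and had positive values with the muscle covariate. In obese mice the count of risen genes, 7, ran from 2 to 7 when single tumors were left out and was 0 with the muscle covariate, where the median fell to 0.614; the count at an FDR below 0.05, 0, ran from 0 to 1, and was 1 with DESeq2 and 5 without tumor 1 of each group. In nonobese mice the count of fallen genes, 1, was 0 with DESeq2, 0 with RLE scaling, 2 without a filter on low counts, 2 without tumor 1 of each group and 4 with the muscle covariate, and ran from 0 to 6 over single tumors. For the difference between responses the FDR count, 0, was 1 with DESeq2, ran from 0 to 2 over single tumors and was 6 without tumor 1 of each group, and the median was 1.663 with the covariate. The count with isotype, 0, was 3 without tumor 1 of each group. With anti–PD-1 the FDR count, 1, was 2 with DESeq2, 2 without a filter, 0 with the 6 tumors alone, 4 without tumor 1 of each group and 5 with the covariate, and ran from 0 to 6 over single tumors. The counts over all genes moved as well. In nonobese mice the fallen genes among all genes tested, 302, numbered 304 with DESeq2, 304 with RLE scaling and 405 of 17519 without a filter. They numbered 416 of 13250 without tumor 1 of each group and 337 with the covariate. For the difference between responses the FDR count over all genes, 0, was 283 with DESeq2, 520 without tumor 1 of each group and 8 with the covariate. With anti–PD-1 it was 50, and became 270 with DESeq2, 104 without a filter, 0 with the 6 tumors alone, 194 without tumor 1 of each group and 112 with the covariate, with 2 to 214 over single tumors. The covariate and the omission of tumor 1 were chosen after seeing the data, and the cause of these shifts was not tested.

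A replicate block raised the nonobese count to 4 and the anti–PD-1 FDR count to 3, while over all genes these counts went from 302 to 350 and from 50 to 95. The labels do not say that same-numbered tumors are paired, and the correlations of deviations from group means cannot settle it. They were above 0.1 in 10 of 18 same-numbered pairs (mean 0.133), against 13 of 36 pairs with different numbers (mean -0.0623). Of 12 tumors, 6 correlated best with their own number. Deviations sum to 0 within a group, so a higher mean for same numbers goes with a lower mean for different ones. Over all genes tested, the 293 genes risen in obese mice became 156 with at least 10 counts in every tumor. They became 442 without a filter and 127 with the covariate. The 302 that fell in nonobese mice became 168 with at least 10 counts and 405 without a filter. Leaving out single tumors gave 187 to 555 and 171 to 491.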
